A study of Homo sapiens with 16 samples.

Results

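The suppressors of cytokine signalling (SOCS) family was examined after repression of KANSL2 in INA6 and JJN3, 2 established cell lines of human multiple myeloma, a plasma cell cancer. Its members, SOCS1, SOCS2, SOCS3, SOCS4, SOCS5, SOCS6, SOCS7 and CISH, were taken by gene symbol, and all 8 were found among the 28277 symbols of each line's expression table. The family was picked with the changes on KANSL2 repression already known, so the differences of its members between knockdown and control libraries are given as descriptions, without a test. KANSL2 encodes a subunit of the NSL complex, which carries the histone acetyltransferase KAT8. It was repressed by CRISPR interference, in which an inactive Cas9 joined to a repressor (named dCas9-CRAB in the series) is directed by a guide RNA. The 4 groups, of 3 RNA libraries each, were INA6 with KANSL2 knockdown, INA6 with a nontargeting guide, JJN3 with KANSL2 knockdown and JJN3 with a nontargeting guide, all untreated and of the plasma cell type by their labels. The sources used here do not say how many guides or clones were used, or whether the replicates were separate cultures. Errors and p-values thus reflect the spread among libraries of an arm, which could be purely technical. The standard errors (SE) are moderated values from the limma fit, in which each gene's variance is drawn towards a trend over all genes. For a gene whose libraries spread widely, the SE is smaller than its own libraries would give. Another 4 JJN3 libraries of chromatin accessibility were not analysed here.

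SOCS proteins switch off cytokine receptors. A cytokine such as interleukin 6 activates JAK kinases on its receptor, these activate STAT transcription factors, and STAT factors then induce SOCS genes, whose products return to the receptor through an SH2 domain that binds phosphotyrosine. A second domain, the SOCS box, joins them to elongins and a cullin ligase that marks bound proteins for degradation, and SOCS1 and SOCS3 also block JAK kinases directly. In myeloma interleukin 6 is a known growth and survival factor, and INA6 is known as a line that needs it while JJN3 grows without it.

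Values were regularised log (rlog) values on the log2 scale, which the authors computed in each line separately, so a member's level was not compared between lines, and levels of different genes were not compared because transcript lengths were not used here. The depth of the libraries is unknown. rlog values shrink towards a gene's mean, so differences of genes with few reads are understated, and all differences are relative to the other genes of the library. KANSL2 itself lay between 7.60 and 7.76 in the INA6 knockdown libraries and between 8.02 and 8.16 in the controls, a difference of −0.39 (SE 0.0625, limma adjusted p = 3.06e-05, n = 3 per arm). In JJN3 it lay between 5.98 and 6.06 against 7.19 and 7.25, a difference of −1.21 (SE 0.0559, limma adjusted p = 1.48e-16, n = 3 per arm). Of 12 plasma cell markers 11 had a mean of at least 3 in each line, among them XBP1 and IRF4, while DERL3 was listed at 0 in INA6. Their summed rlog value was 132.5 to 132.9 in the INA6 controls and 129.0 to 130.3 in the knockdown libraries, and 119.4 to 120.2 against 121.4 to 121.9 in JJN3. Of 10 myeloid and 10 stromal markers, 1 and 1 reached a mean of 3 in INA6 and 1 and 2 in JJN3. These were CD14 (3.24 in INA6, 6.13 in JJN3), TAGLN (5.77 and 4.16) and, in JJN3, ACTA2 (4.06). CD163, FCGR3A, MARCO and LUM were listed at 0 in both lines. Of the T and NK cell list 9 of 10 were in the tables, and 3 reached a mean of 3 in INA6 and 1 in JJN3. Its summed value was 11.58 to 11.86 in the INA6 controls against 11.45 to 11.48 with knockdown. In JJN3 it was 8.54 to 8.83 against 8.44 to 8.55. Of 8 B cell markers 5 reached a mean of 3 in each line, with summed values of 35.7 to 35.9 in the INA6 controls against 35.6 to 36.0 and of 30.9 to 31.5 in the JJN3 controls against 31.3 to 31.7. The part of any of these in the results was not tested.

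The promoters of SOCS3, CISH and SOCS1 are shown because these 3 members had the widest differences in at least 1 line. Each sequence runs from 250 bases before to 50 bases after a gene start of the RefSeq annotation of GRCh38.p14, read 5′ to 3′ on the gene's strand, which is the minus strand for all 3. The 5 members with an entry were SOCS1, SOCS3, SOCS4, SOCS6 and CISH. SOCS3 is at chr17:78360876-78361175, CISH at chr3:50611725-50612024 and SOCS1 at chr16:11256155-11256454. Capitals mark matches to TTCNNNGAA, the palindromic STAT motif, in SOCS3 and CISH, and in SOCS1 to an interferon regulatory factor motif, GAAA, any 2 bases and GAAA again, searched on both strands.
SOCS3: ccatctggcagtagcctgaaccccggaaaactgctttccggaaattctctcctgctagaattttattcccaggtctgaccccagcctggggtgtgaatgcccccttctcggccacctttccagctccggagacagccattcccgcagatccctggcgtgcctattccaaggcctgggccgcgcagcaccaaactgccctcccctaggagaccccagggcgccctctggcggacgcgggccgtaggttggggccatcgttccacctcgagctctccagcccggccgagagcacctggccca
CISH: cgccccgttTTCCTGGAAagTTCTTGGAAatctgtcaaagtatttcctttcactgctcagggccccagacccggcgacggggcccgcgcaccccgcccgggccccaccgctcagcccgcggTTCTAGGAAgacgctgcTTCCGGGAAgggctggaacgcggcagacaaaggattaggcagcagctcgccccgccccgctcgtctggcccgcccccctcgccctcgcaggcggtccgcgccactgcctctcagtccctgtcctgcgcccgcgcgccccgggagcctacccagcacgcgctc
SOCS1: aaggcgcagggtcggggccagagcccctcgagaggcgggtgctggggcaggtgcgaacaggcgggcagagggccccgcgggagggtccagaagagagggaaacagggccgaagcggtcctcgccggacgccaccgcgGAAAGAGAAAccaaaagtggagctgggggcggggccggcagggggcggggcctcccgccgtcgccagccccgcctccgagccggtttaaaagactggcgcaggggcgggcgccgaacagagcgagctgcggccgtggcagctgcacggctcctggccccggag
The CISH promoter held 4 matches to TTCNNNGAA, TTCCTGGAA, TTCTTGGAA, TTCTAGGAA and TTCCGGGAA, starting 241, 230, 129 and 112 bases before the gene start. At least 1 match was present in 7.66% of the 35116 promoters of the same length, and 3 or more in 0.0484%. The other members with an entry had no match to TTCNNNGAA in this window, which holds also for the second start of SOCS3, whose sequence is not shown. Sequence outside these windows, including any other start of SOCS3, was not searched. The lack of a match here therefore does not show that a gene lacks the motif. SOCS1 held 1 match to the interferon regulatory factor motif, GAAAGAGAAA, starting 113 bases before the gene start, and the motif was found in 3.57% of promoters and was chosen after the sequences were seen. No data on binding or chromatin were used, so these matches are descriptions of the sequence.

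**Figure D1:**
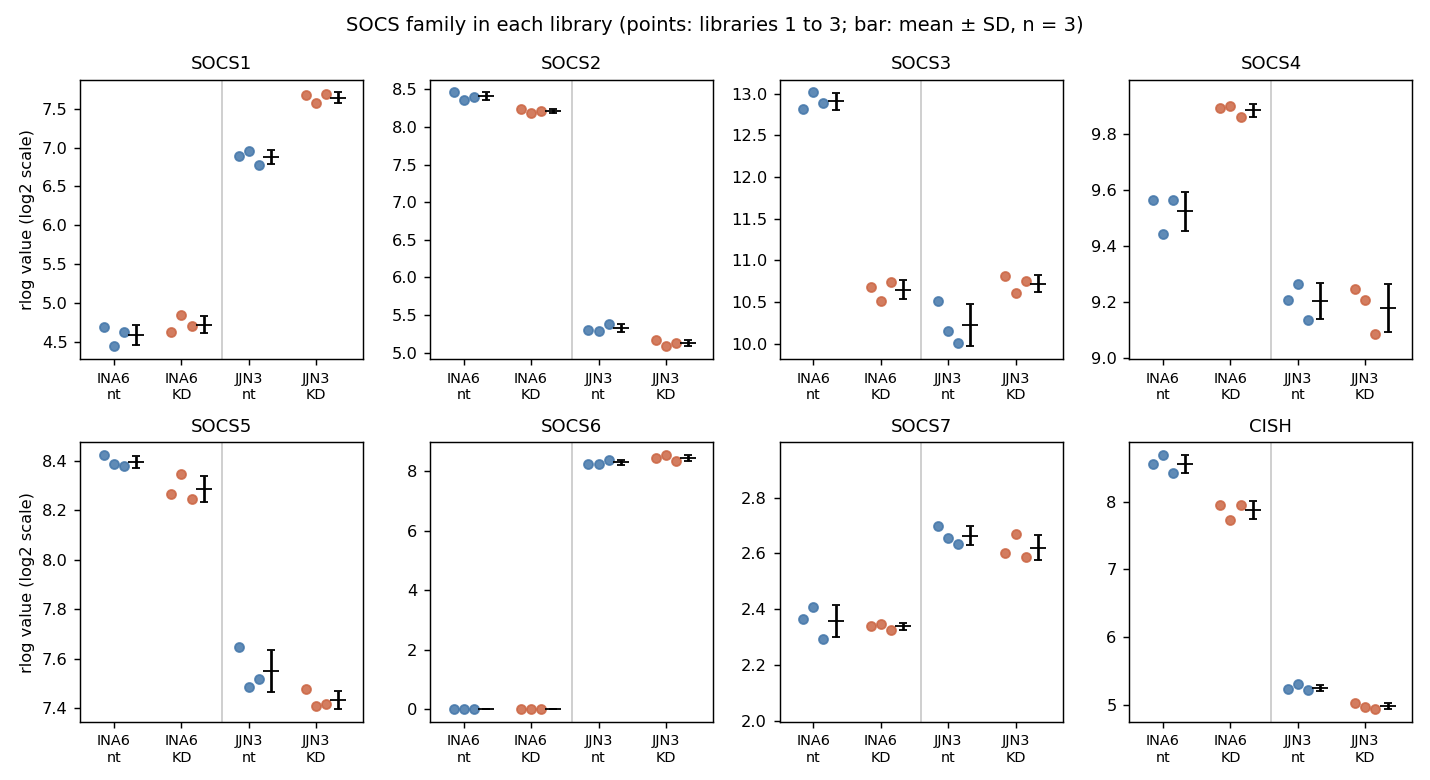
rlog values (log2 scale) of the 8 SOCS family members in each library, with nontargeting (nt, blue) and KANSL2 knockdown (KD, orange) groups of INA6 and JJN3 and the mean ± SD (n = 3) beside them. SOCS3 dropped from about 12.91 to 10.65 in INA6 and stood higher with knockdown in JJN3; the axes of the panels differ, and the 2 lines were normalised separately.

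Of the 8 members, 6 in INA6 and 7 in JJN3 reached the mean rlog value of 3 needed to enter the fit across all genes. In that fit 4 of 6 had a limma adjusted p below 0.05 in INA6, 1 higher (24.7% of all genes tested) and 3 lower (24.0%), beside 48.6% of the 12511 genes tested in either direction. In JJN3 5 of 7 did, 3 higher (25.5% of all genes) and 2 lower (25.5%), beside 51.0% of the 12282 genes. The 2 groups did not overlap for 5 of 6 members in INA6, beside 55.2% of all genes, and for 5 of 7 in JJN3, beside 56.1%. Because the family was chosen with these contrasts in view, nothing is read from these shares. The same holds for whether a single member passed the threshold, here and below, which is given as description only. Among all genes called in INA6 50.7% were higher, and with median centring of the libraries 61.9% were. In JJN3 these shares were 50.05% and 59.4%.

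SOCS3, the member that binds the shared interleukin 6 receptor chain and blocks JAK kinases, went in opposite directions in the 2 lines. In INA6 its rlog values were 12.82, 13.02 and 12.89 in the control libraries and 10.68, 10.52 and 10.74 in the knockdown libraries. Every knockdown library lay at least 2.08 below every control. The difference was −2.26 (SE 0.0545, n = 3 per arm), or 20.8% of the control level, the largest fall of the 12511 genes tested in INA6. In JJN3 SOCS3 had values of 10.51, 10.16 and 10.01 in the controls and 10.81, 10.61 and 10.75 with knockdown. All 3 knockdown libraries were above the controls, though control library 1 came within 0.0975 of the lowest of them, and the controls spread widely (SD 0.257). The difference was 0.50 (SE 0.0703), or 141% of the control level, of rank 105 among the rises of 12282 genes. This moderated SE is smaller than the spread of the gene's own libraries would give. Leaving out single libraries or changing the scaling gave 0.39 to 0.64 in JJN3 and −2.32 to −2.20 in INA6. The change in JJN3 minus the change in INA6 came to 2.76 (SE 0.089), which was not tested. The 2 changes belong to unequal knockdowns, with KANSL2 at 76.4% of the control level in INA6 and 43.1% in JJN3. In bulk RNA, fewer cells of a type and less RNA per cell cannot be told apart. The gene lies on chromosome 17 from 78356778 to 78360925 (GRCh38.p14) and overlaps the long noncoding gene SOCS3-DT.

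CISH and SOCS2, both known as targets of STAT5 that restrain signalling through STAT5, were lower with knockdown in both lines. CISH had rlog values of 8.56, 8.68 and 8.42 in the INA6 controls and 7.94, 7.72 and 7.96 with knockdown. The groups were separated by 0.466, and the difference was −0.68 (SE 0.0712), or 62.4% of the control level, the fall of rank 82. In JJN3 CISH was at 5.23, 5.30 and 5.22 in the controls and at 5.03, 4.98 and 4.95 with knockdown. There too the groups did not overlap, and the difference was −0.27 (SE 0.0492), or 83.1% of the control level. CISH lies on chromosome 3 from 50606489 to 50611774 and overlaps the protein-coding gene MAPKAPK3. MAPKAPK3, a kinase gene, differed by 0.01 in INA6 (limma adjusted p = 0.847) and rose by 0.22 in JJN3 (limma adjusted p = 0.000165). Whether counting used the strand is not stated, so reads of the shared stretch could belong to either gene.

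SOCS2, which is known to restrain growth hormone signalling, had nearly the same small difference in rlog value in each line. Its values in INA6 were 8.46, 8.35 and 8.41 in the controls against 8.25, 8.19 and 8.22, and in JJN3 5.30, 5.28 and 5.38 against 5.17, 5.08 and 5.12. In neither line did the groups overlap. The differences were −0.19 (SE 0.0555) in INA6 and −0.20 (SE 0.0502) in JJN3, or 87.8% and 87.2% of the control level. With quantile normalisation the JJN3 difference was −0.14. The mean rlog value of SOCS2 was 8.31 in INA6 and 5.22 in JJN3. Shrinkage is stronger for genes with few reads, so similar rlog differences do not show similar changes. SOCS2 (chromosome 12, 93569969 to 93626236) overlaps the antisense gene SOCS2-AS1, which was at −0.10 in INA6 (limma adjusted p = 0.0702; it passed without control library 3, at −0.12) and had a mean rlog value of 0.852 in JJN3, too low to enter the fit.

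SOCS1, which like SOCS3 blocks JAK kinases and is known to curb interferon signalling, was higher with knockdown in JJN3. Its JJN3 values were 6.90, 6.96 and 6.78 in the controls and 7.67, 7.57 and 7.69 with knockdown. The groups stood 0.610 apart, and the difference of 0.77 (SE 0.059) is 170% of the control level, of rank 14 among the rises of 12282 genes. In INA6 the values were 4.69, 4.44 and 4.62 against 4.62, 4.84 and 4.70. These groups overlapped, and the difference was 0.14 (SE 0.066), which did not pass the threshold of the fit. It ranged from 0.07 without control library 2 to 0.19 without control library 1, and passed without control library 1, without knockdown library 1 (0.19) and with median centring (0.17). The gene lies on chromosome 16 from 11254417 to 11256204.

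**Figure D2:**
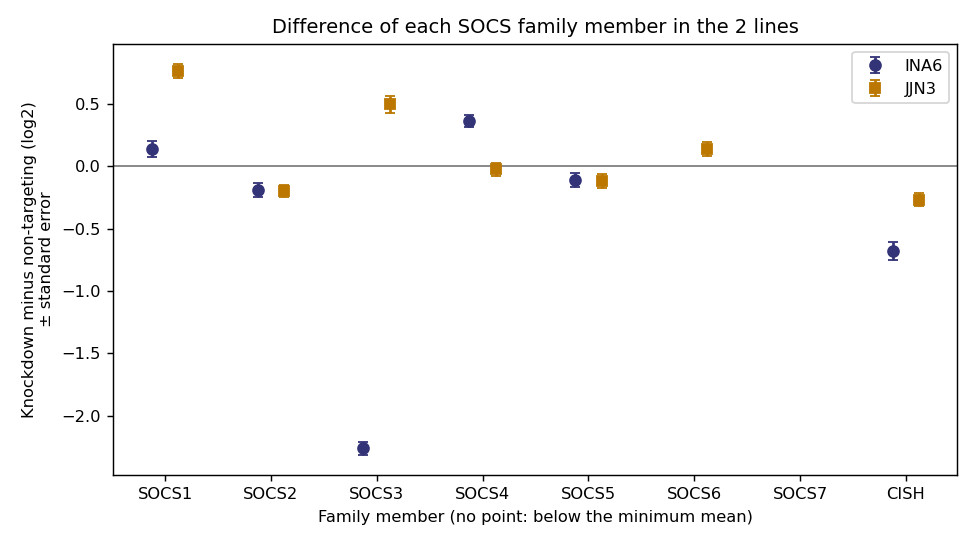
Difference in rlog value, knockdown minus nontargeting, of each SOCS family member that entered the fit (circles INA6, squares JJN3; bars are limma standard errors, n = 3 libraries per arm). SOCS3 stands at −2.26 in INA6 and 0.50 in JJN3, SOCS1 at 0.77 in JJN3, and SOCS2 and SOCS5 at similar small negative values in both lines.

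The members with a long region before the SH2 domain, SOCS4 to SOCS7, are known less for cytokine feedback than for acting on receptor tyrosine kinases and insulin signalling. SOCS4, known for acting on the epidermal growth factor receptor, was at 9.57, 9.44 and 9.56 in the INA6 controls and at 9.90, 9.90 and 9.86 with knockdown. The knockdown libraries were all higher, by 0.36 on average (SE 0.0491), or 128% of the control level. In JJN3 it was at 9.21, 9.26 and 9.14 against 9.25, 9.21 and 9.08, overlapping groups with a difference of −0.02 (SE 0.0498). The sign of that JJN3 value changed with median centring (0.003), without control library 2 (0.007) and without knockdown library 3 (0.02). SOCS4 begins on chromosome 14 at 55027236, 137 bases from WDHD1, which was at 0.002 in INA6 (limma adjusted p = 0.975) and 0.05 in JJN3 (limma adjusted p = 0.426).

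SOCS5, closely related to SOCS4, had values of 8.42, 8.39 and 8.38 in the INA6 controls and 8.27, 8.35 and 8.25 with knockdown. In JJN3 it was at 7.65, 7.48 and 7.52 against 7.48, 7.41 and 7.42. The knockdown libraries were just below the controls in both lines, with gaps of 0.0318 and 0.00914, and the differences of −0.11 (SE 0.0552) and −0.12 (SE 0.0569) did not pass the threshold of the fit.

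SOCS6, which is known to bind the receptor KIT, was listed at 0 in all 6 INA6 libraries. Some genes that every cell uses, such as the translation factor gene EIF4A1, were also listed at 0 in both tables, so this does not show that SOCS6 is not expressed there. In JJN3 SOCS6 was at 8.26, 8.25 and 8.40 in the controls and 8.44, 8.55 and 8.34 with knockdown. The groups overlapped, and the difference was 0.14 (SE 0.0561). It passed the threshold of the fit but not without control library 1 (0.12), control library 2 (0.11) or knockdown library 2 (0.09). Of the protein-coding genes on either side of SOCS6 on chromosome 18, RTTN, 83358 bases away, had a mean of 5.94 in INA6 and 6.77 in JJN3. CBLN2, 2206500 bases away, was listed at 0 in INA6 and had a mean of 4.88 in JJN3. SOCS7, which is known to bind the adaptor NCK, did not enter the fit, with means of 2.35 (INA6) and 2.64 (JJN3) and overlapping groups in both lines and differences of −0.02 and −0.04.

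Side by side, SOCS2, SOCS5 and CISH had a lower mean with knockdown in both lines, SOCS1 a higher mean in both, and SOCS3 and SOCS4 means of opposite sign, the SOCS4 value in JJN3 being within its standard error of 0. The change in JJN3 minus that in INA6 was 0.63 (SE 0.0885) for SOCS1, 0.41 (SE 0.0865) for CISH and −0.38 (SE 0.0699) for SOCS4, against −0.01 (SE 0.0748) for SOCS2 and −0.01 (SE 0.0793) for SOCS5. These differences between lines were not tested, since both contrasts were known when the family was chosen. They also set unequal knockdowns of KANSL2 side by side, 76.4% of the control level in INA6 and 43.1% in JJN3. In SOCS1 (mean rlog value 4.65 in INA6, 7.26 in JJN3) and CISH (8.21 and 5.12) the smaller difference lay in the line with the lower mean. These means come from separate normalisations and serve only as a sign of the number of reads. rlog shrinkage is stronger for genes with few reads, its part in these differences was not tested, and the SEs do not include it. The SDs of members that entered the fit were 0.022 to 0.131 in INA6 and 0.0371 to 0.257 in JJN3.

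The genes of other pathway steps were taken from 11 lists. Some genes, such as FOS, ZFP36, PIM1 and BCL6, are in more than 1 list, so the counts of different lists are not independent. The genes tested in a list can also differ between lines. The median difference of all genes tested was 0.0009 in INA6 and 0.001 in JJN3, and the share called was 48.6% and 51.0% as above. The SOCS box ligase, through which the family acts on bound proteins, had few calls. Of 14 tested partners 3 rose and 1 fell in INA6 (median 0.04) and 2 rose and 1 fell in JJN3 (median 0.04), and without control library 2, control library 3 or knockdown library 3 the INA6 count was 1 and 1. In JJN3 the count was a single rise without control library 1, control library 2 or knockdown library 2. Elongin C (ELOC) rose in INA6 by 0.29 (limma adjusted p = 4.31e-05) and was at 0.06 in JJN3 (limma adjusted p = 0.253), while the cullin CUL5 was at 0.04 and 0.08 and passed in neither (limma adjusted p = 0.554 and 0.18), though in JJN3 it did without knockdown library 3 (0.12, limma adjusted p = 0.0461). Of other proteins with a SOCS box, 1 of 18 rose and 6 fell in INA6 (median −0.12) and 4 of 17 rose and 6 fell in JJN3 (median −0.06). WSB1 (−0.33 and −0.42) and WSB2 (−0.37 and −0.39) fell in INA6 and JJN3. SPSB1, an adaptor for nitric oxide synthase, rose by 0.59 in JJN3 (limma adjusted p = 1.07e-09) and was at −0.14 in INA6 (limma adjusted p = 0.0515).

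Cytokine receptors were listed together with the receptors for insulin and insulin-like growth factor 1. This list had 2 rises and 13 falls among 24 tested in INA6 (median −0.20) and 10 rises and 4 falls among 22 in JJN3 (median 0.08). IL2RB, a receptor chain for interleukins 2 and 15, fell in INA6 (−0.73, limma adjusted p = 2.49e-08), as did IL5RA (−0.70, limma adjusted p = 1.52e-08) and the erythropoietin receptor gene EPOR (−0.61, limma adjusted p = 3.37e-07). EPOR fell in JJN3 too (−0.23, limma adjusted p = 0.000649), while IL2RB and IL5RA had means of 1.18 and 0.215 there, too low to enter the fit. IL6ST, the shared interleukin 6 receptor chain that SOCS3 binds, rose in both lines, by 0.35 in INA6 (limma adjusted p = 4.22e-06) and 0.32 in JJN3 (limma adjusted p = 3.63e-06). IL6R was at −0.02 and −0.03 and passed in neither (limma adjusted p = 0.745 and 0.699). Of 10 JAK and STAT genes tested, 3 fell in INA6 and the other 7 did not pass (median −0.04), and 2 rose and 3 fell in JJN3 (median 0.02). STAT5B fell in both lines (−0.41 and −0.36), and STAT5A fell in JJN3 (−0.53, limma adjusted p = 2.74e-09) and was at −0.08 in INA6 (limma adjusted p = 0.319). JAK1 fell by 0.27 in INA6 and rose by 0.19 in JJN3. STAT3 was at 0.07 and 0.03 and passed in neither (limma adjusted p = 0.164 and 0.54), though in INA6 it did with median centring (0.11, limma adjusted p = 0.0358). Few cytokine genes entered the fit, 3 in INA6 (median −0.07) and 4 in JJN3 (median −0.12), too few to describe by their calls.

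Other restraints on the pathway, such as phosphatases and PIAS proteins, mostly fell where they were called, 7 of 14 with 1 rise in INA6 (median −0.09) and 7 of 13 with 1 rise in JJN3 (median −0.12), where 5 were called, each of them a fall, without knockdown library 2. The phosphatase genes PTPN6 (−0.32) and PTPRC (−0.20) fell and PTPN2 rose (0.28) in INA6. The ubiquitin ligase gene CBL fell in both lines (−0.23 and −0.36), and PDLIM2, which promotes STAT degradation, fell in JJN3 (−0.58). Among proteins that SOCS members are known to bind, 1 of 10 rose and 2 fell in INA6 (median −0.003) and 3 of 9 rose and 2 fell in JJN3 (median 0.04). With median centring the INA6 count was 3 and 2, and with quantile normalisation 3 and 3. The receptor gene KIT rose in both lines (0.64 and 0.21). The insulin receptor substrate gene IRS1 fell in INA6 (−0.36), while IRS2 rose in JJN3 (0.67) and was listed at 0 in INA6.

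**Figure D3:**
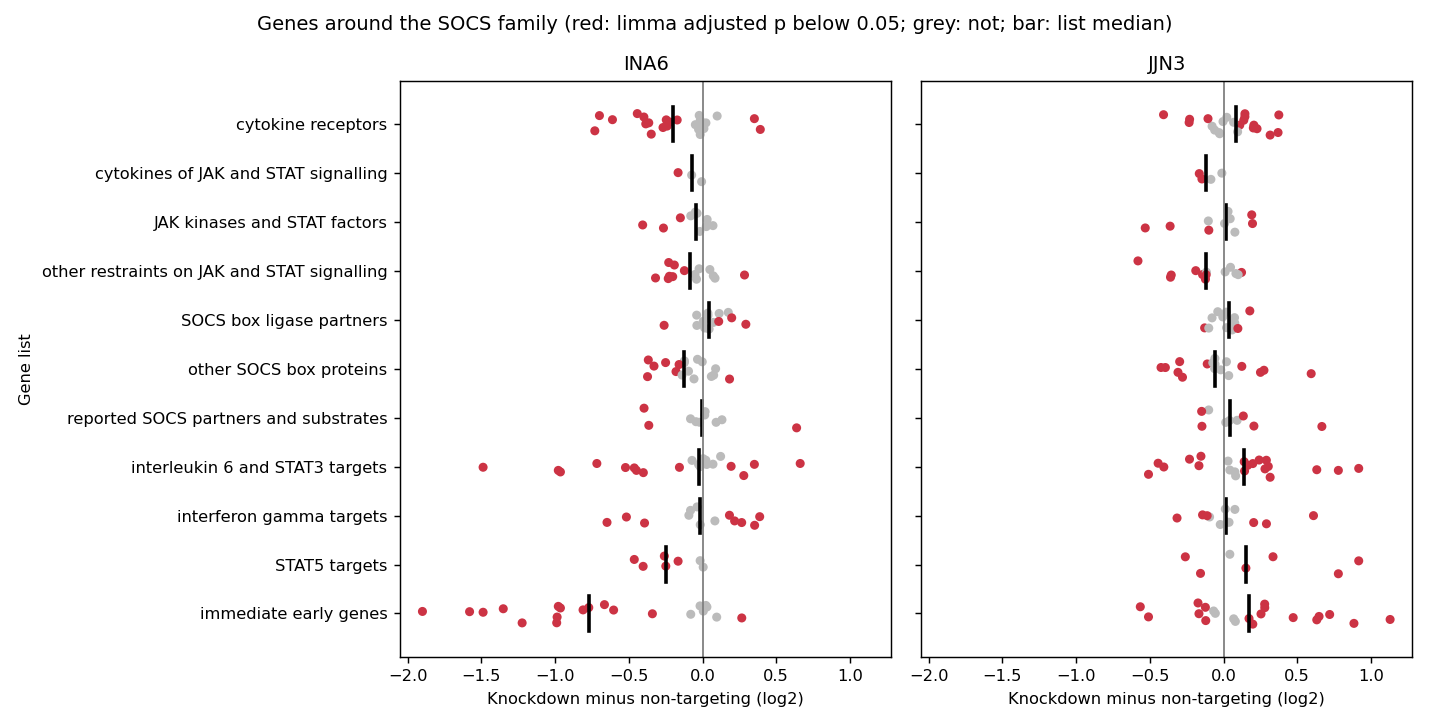
Differences in rlog value (knockdown minus nontargeting, log2) of the tested genes of each of 11 lists in INA6 (left) and JJN3 (right); each point is a gene, red where the limma adjusted p was below 0.05, and the black bar is the list's median. The immediate early genes have a median of −0.77 in INA6 and 0.17 in JJN3.

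Genes known to respond to the same signals as SOCS3 had more falls than rises in INA6 and more rises than falls in JJN3, and this difference between lines was not tested. These are counts per list, and single genes did not all change direction. Of 21 immediate early genes, which cells switch on within minutes of a stimulus, 14 fell and 1 rose in INA6 (median −0.77), and 11 rose and 6 fell in JJN3 (median 0.17). FOS fell by 1.49 in INA6 and rose by 0.63 in JJN3, and KLF2 fell by 1.35 and rose by 0.65, as SOCS3 was lower and then higher. BTG2 (−1.22 and −0.56) and CD69 (−1.58 and −0.17) instead fell in both lines. The JJN3 call of CD69 was lost with quantile normalisation and without control library 1 or knockdown library 3. ATF3 was at −0.017 in INA6 (limma adjusted p = 0.822) and rose by 1.13 in JJN3. Every immediate early gene called lower in JJN3 was also called lower in INA6. Immediate early genes also respond to the handling of cells, and the part of handling in the SOCS3 difference was not tested. Of interleukin 6 and STAT3 targets 4 of 21 rose and 9 fell in INA6 (median −0.03), and 12 of 22 rose and 6 fell in JJN3 (median 0.14). Most of those called in both lines were called in the same direction, with FOS and PIM1 among the exceptions. ZFP36 fell in both lines (−0.96 and −0.51), as did JUNB (−0.98 and −0.17), whose JJN3 call was lost without control library 1. The germinal centre repressor gene BCL6 rose by 0.92 in JJN3 (limma adjusted p = 5.05e-13) and was at 0.004 in INA6 (limma adjusted p = 0.963).

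Of STAT5 targets other than CISH and SOCS2, 5 of 7 fell in INA6 and the other 2 did not pass (median −0.25), and 4 of 7 rose and 2 fell in JJN3 (median 0.15). The survival kinase gene PIM1 fell by 0.46 in INA6 and rose by 0.78 in JJN3, DUSP5 fell by 0.40 and rose by 0.34, and PIM2 fell in both (−0.25 and −0.16). Of interferon gamma targets, the setting in which SOCS1 is best known, 5 of 13 rose and 3 fell in INA6 (median −0.02), and 3 of 12 rose and 3 fell in JJN3 (median 0.02). CIITA, the master regulator of MHC class II genes, rose in JJN3 by 0.61 (limma adjusted p = 2.21e-12) and was at 0.08 in INA6 (limma adjusted p = 0.147). IFITM1 fell in both lines (−0.65 and −0.32) and IRF9 rose in both (0.39 and 0.29).

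The genes most like each member were sought by Pearson correlation over the 12 libraries, each taken as its difference from the mean of its line's controls, among the 11137 genes that entered the fit in both lines. These correlations include the difference between arms, the libraries share their normalisation, and genes are not independent replicates. SOCS3 was most like TOB1, an antiproliferative gene (r = 0.991), and BHLHE40, a transcriptional repressor gene (r = 0.99). BHLHE40 fell by 1.02 in INA6 and TOB1 by 0.43. In JJN3 BHLHE40 was at 0.24, a call lost with quantile normalisation (0.14, limma adjusted p = 0.0943) and without control library 3 (0.11, limma adjusted p = 0.0818), and TOB1 at 0.12, a call lost without control library 2 or 3 or knockdown library 1 or 2 (values of 0.10 to 0.13) and with quantile normalisation (0.10, limma adjusted p = 0.0792). CISH was most like OLMALINC (r = 0.979), at −0.91 in INA6 and −0.33 in JJN3, and VAMP2 (r = 0.978). For SOCS1 these were FAIM (r = 0.974) and WDR76 (r = 0.97), for SOCS2 SMARCAL1 (r = 0.973) and EIF3L (r = 0.969), for SOCS4 METAP1 (r = 0.987) and PDS5A (r = 0.977), and for SOCS5 ARHGEF1 (r = 0.94) and TMEM182 (r = 0.933).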

How the data were processed

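Poly(A) RNA of 12 libraries was sequenced, 3 in each of 4 groups named by the sample titles. The tools named for these libraries are Bowtie2, HTSeq, DESeq2 and Trim Galore, with build hg38, per the submitters' processing notes; versions, settings, strand and annotation are not given in the sources used here. The authors deposited 1 table per line of rlog values on the log2 scale, made from counts scaled by size factors; depth is unknown and no counting interval was computed. No 2 libraries were identical. All genes whose mean over a line's 6 libraries was 3 or more were fitted with limma 3.58.1 in R 4.3.3 (eBayes with trend, no block), two-sided, with Benjamini-Hochberg adjustment over all of them and a threshold of 0.05. The script was tested on simulated data. Members, lists and alternatives were chosen with earlier results of these data known. Besides the members and KANSL2, genes were named by rule: up to 3 called genes with the smallest p per list and line, the 2 most correlated genes per member, and genes overlapping a member. Of the 48 list genes this gave, some are not printed, for length. A gene of the lists was left out of them and is not reported here. IL6R, STAT3, CUL5, EIF4A1, WDHD1, RTTN and CBLN2 were named outside it, after their values were seen. Single cell type markers, which had been planned as counts and ranges only, were also named outside the rule. Levels per transcript length, which had been planned, were not computed because no transcript lengths were at hand. Alternatives were other minimum means, median centring, quantile normalisation, no trend, a replicate block and leaving out each library.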

Additional observations from a re-analysis of the deposited data

Results flagged for a closer look

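Only the 8 SOCS members and the 48 list genes named by rule were searched. In 8 of these genes every knockdown library moved away from all controls of its line, in opposite directions in the 2 lines. The list genes had been named for their small p. Over all genes tested the groups did not overlap, in either direction, for 55.2% in INA6 and 56.1% in JJN3. The share with opposite directions over all genes was not computed, so nothing is read from the count of 8. The difference between lines was not tested for any of these genes. SOCS3 was at −2.26 in INA6 and 0.497 in JJN3. FOS was at −1.49 and 0.633, KLF2 at −1.35 and 0.648, PIM1 at −0.463 and 0.779, DUSP5 at −0.403 and 0.336, and JAK1 at −0.265 and 0.191. SPSB1 was at −0.139 and 0.595, the INA6 value not passing the threshold. NEDD8, the modifier that activates cullins, went the other way, at 0.0726 and −0.128, the INA6 value not passing the threshold and the JJN3 call being lost under most alternatives, median centring and quantile normalisation among them.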

How the results depend on the processing

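The number of genes called was 5034 to 6093 in INA6 and 5332 to 6078 in JJN3 when 1 library was left out, against 6084 and 6264, and the number of SOCS members called was 4 to 5 in each line over those fits. None of the 12 alternatives per line moved either count by over 1.5 times. No SOCS member that passed the threshold changed sign under the scalings, the block or leaving out a library. With the replicate number as a block the counts were 5626 in INA6 and 6205 in JJN3, and SOCS6 in JJN3 no longer passed. The deviations of same-numbered libraries from their arm's mean correlated at −0.296 to −0.068 in INA6 and −0.014 to 0.005 in JJN3. In each line 0 of 3 controls correlated best with its own number. Deviations of 3 libraries from their mean constrain one another, so these values cannot show whether same-numbered libraries were made together. Of the other named genes, UBE2D3, a ubiquitin-conjugating enzyme gene, reversed in JJN3 with quantile normalisation (−0.0167, adjusted p = 0.742, against 0.10). In the promoter windows of the 5 members with an entry, the STAT motif with 4 free bases in its middle matched 0 members, where that with 3 matched 1, CISH. Levels per transcript length were not run.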
